A study of Mus musculus with 12 samples.

Results

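The amino acid carriers of the Slc1a, Slc3a, Slc7a, Slc38a and Slc43a families were followed through normal mouse lung and orthotopic lung tumours, which are tumours grown inside the lung. The members were the genes whose symbol is one of these family names followed by a number and nothing else. They numbered 38 among the 36254 genes measured, with 7 of Slc1a, 2 of Slc3a, 15 of Slc7a, 11 of Slc38a and 3 of Slc43a. RNA sequencing covered 12 libraries in 4 groups of 3. Control was normal lung with no tumour, Model was untreated tumour, and Taurine and Proline were the same kind of tumour given the named amino acid. The sample names give C57 mice for all 4 groups, and the labels used here give no tumour line, age, dose or duration. All libraries carry lung tumour as their tissue label, but the series text describes Control as normal lung, and the comparisons follow that text.

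Cells take up most amino acids through membrane carriers, since amino acids cross lipid membranes poorly. Some carriers pump amino acids inward with sodium, and others exchange an amino acid inside the cell for one outside. The Slc7a light chains work in pairs with a heavy chain of the Slc3a family, which carries them to the cell surface. Dividing cells are known to need amino acid uptake, and leucine and arginine that are taken up also signal to the growth kinase complex mTORC1.

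The libraries held 56542745 to 69456490 counts each, and the members took 0.149% to 0.178% of the counts of a library. Lung marker genes were present in Control and low in the tumours. The 7 alveolar type 2 markers summed to 12523 to 14523 FPKM in Control and to 5.17 to 8.58 in Model, and all 7 were lower in Model. FPKM is the fragment count per kilobase of gene and per fixed number of fragments in the library, so it can be compared between genes. All 6 alveolar type 1 markers were lower (1381 to 1492 against 18.3 to 21.2), as were all 6 endothelial markers (747 to 805 against 23.2 to 29.1). Of 6 macrophage markers 5 were higher in Model, with sums of 79.5 to 126 against 561 to 613, and all 5 proliferation markers were higher (5.06 to 7 against 94.7 to 107). None of the genes in these lists was at 0 throughout a group. The part of this change in cell types in the results below was not tested. In such bulk samples, fewer cells of a type and less RNA per cell cannot be told apart.

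Of the members, 23 were well expressed, meaning a mean of at least 1 FPKM in some group. Another 7 were low, with a highest group mean between 0.1 and 1 FPKM: Slc1a2, Slc3a1, Slc7a3, Slc7a11, Slc7a13, Slc38a3 and Slc43a1. The other 8 were at or near 0, namely Slc1a6, Slc1a7, Slc7a9, Slc7a12, Slc7a14, Slc7a15, Slc38a8 and Slc38a11. Slc38a8 had 0 counts in every library. Slc7a14 had 15 counts and Slc1a6 had 16, each in a single Control library. Slc38a11 had 68 counts, all in Control, and Slc7a12 had 19, all in tumours. These 5 did not pass the filter on low counts, which left 33 members tested. For 2 members, Slc1a2 and Slc38a5, Control was the only group whose libraries were all over the filter's minimum of 10 counts scaled to depth.

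**Figure D1:**
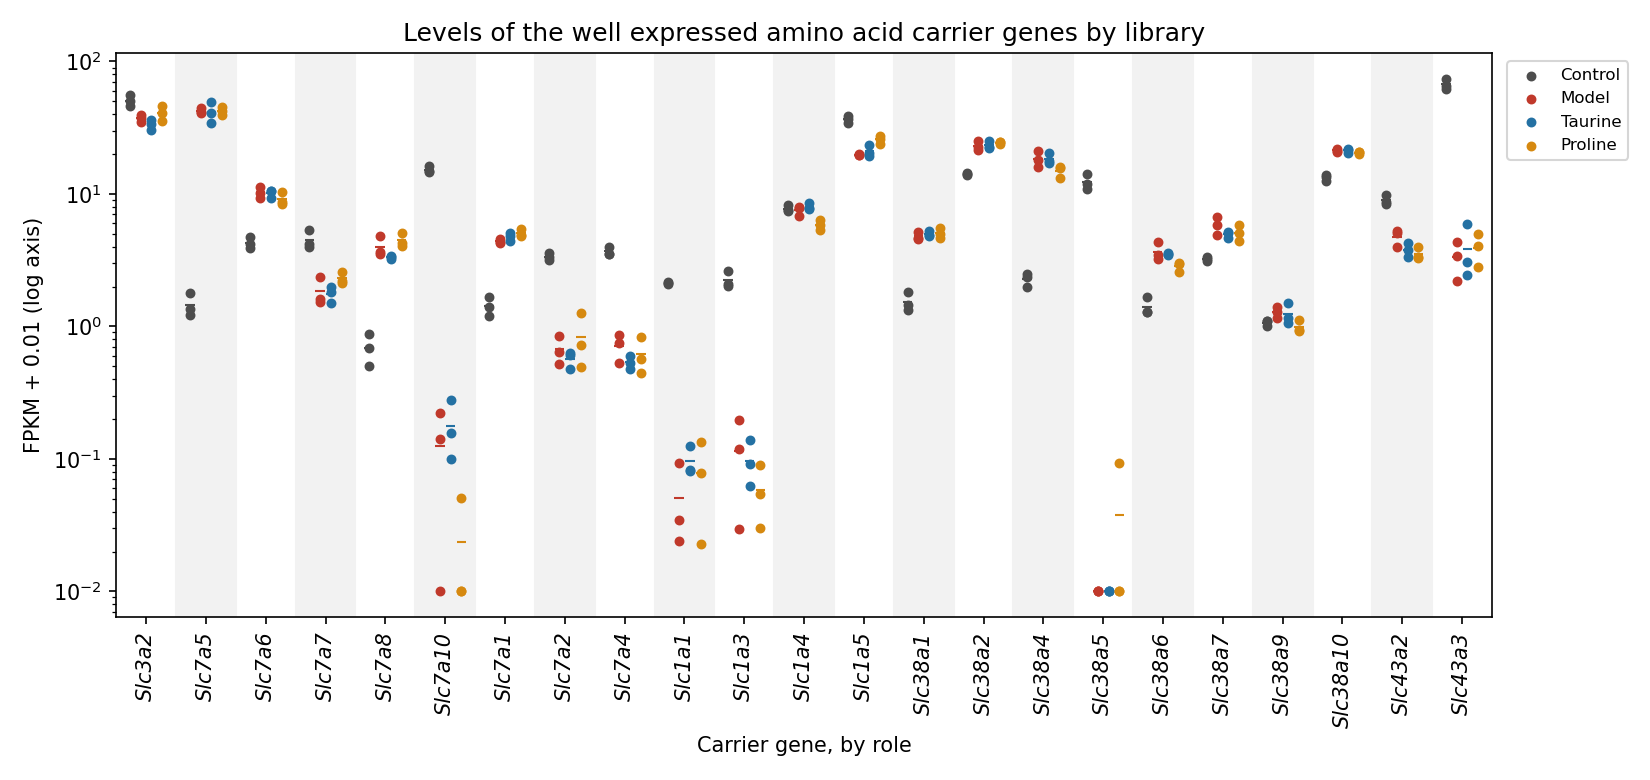
FPKM plus 0.01 of each of the 23 well expressed members, on a log axis. Points are libraries in the 4 groups and lines are group means. Slc7a5 lies near 40 FPKM in every tumour group and near 1 in Control, Slc38a5 is at 0 in all tumour libraries except 1 of Proline, and the 3 tumour groups lie close together for most genes.

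Model was set against Control to show what the untreated tumour had in place of the carriers of normal lung. The members summed to 261 ± 8.81 FPKM in Control and 218 ± 8.43 in Model (SD, n = 3), and this order rests on Slc43a3, the most abundant member of Control. Without Slc43a3 the sum was 194 ± 3.26 FPKM in Control and 214 ± 7.52 in Model, with every Model library above every Control library. These sums are of FPKM scaled to library total. The fit below used TMM scaling, under which no sums were made, so this small difference may depend on the scaling and was not tested. In Control the 6 highest members were Slc43a3, Slc3a2, Slc1a5, Slc7a10, Slc38a2 and Slc38a10, and they held 75.4% of the members' summed FPKM. The 6 highest of Model were Slc7a5, Slc3a2, Slc38a2, Slc38a10, Slc1a5 and Slc38a4, with 74.5%. Slc7a5 stood at rank 19 of the members in Control and at rank 1 in Model, and Slc43a3 went from rank 1 to rank 15. Slc3a2 was at rank 2 in both.

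By edgeR's quasi-likelihood test with Benjamini-Hochberg adjustment over the 23191 genes tested and an adjusted p threshold of 0.05, 10 of the 38 members (26.3%) were higher in Model and 12 (31.6%) were lower. Of all genes tested, 28.8% were higher and 29.3% were lower. Over the 33 members that were tested, as all genes of the background were, the shares were 30.3% higher and 36.4% lower. The counts are not read as a result about these families. The smaller counts by role below stand beside the same shares of all genes and are not read as a result either. The median log2 fold change was -0.03 both over the 33 members tested and over all genes, and it was -0.03 too with Slc38a5, which had 0 counts in Model, set at its bound. What the families show is in which members rose and which fell.

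**Figure D2:**
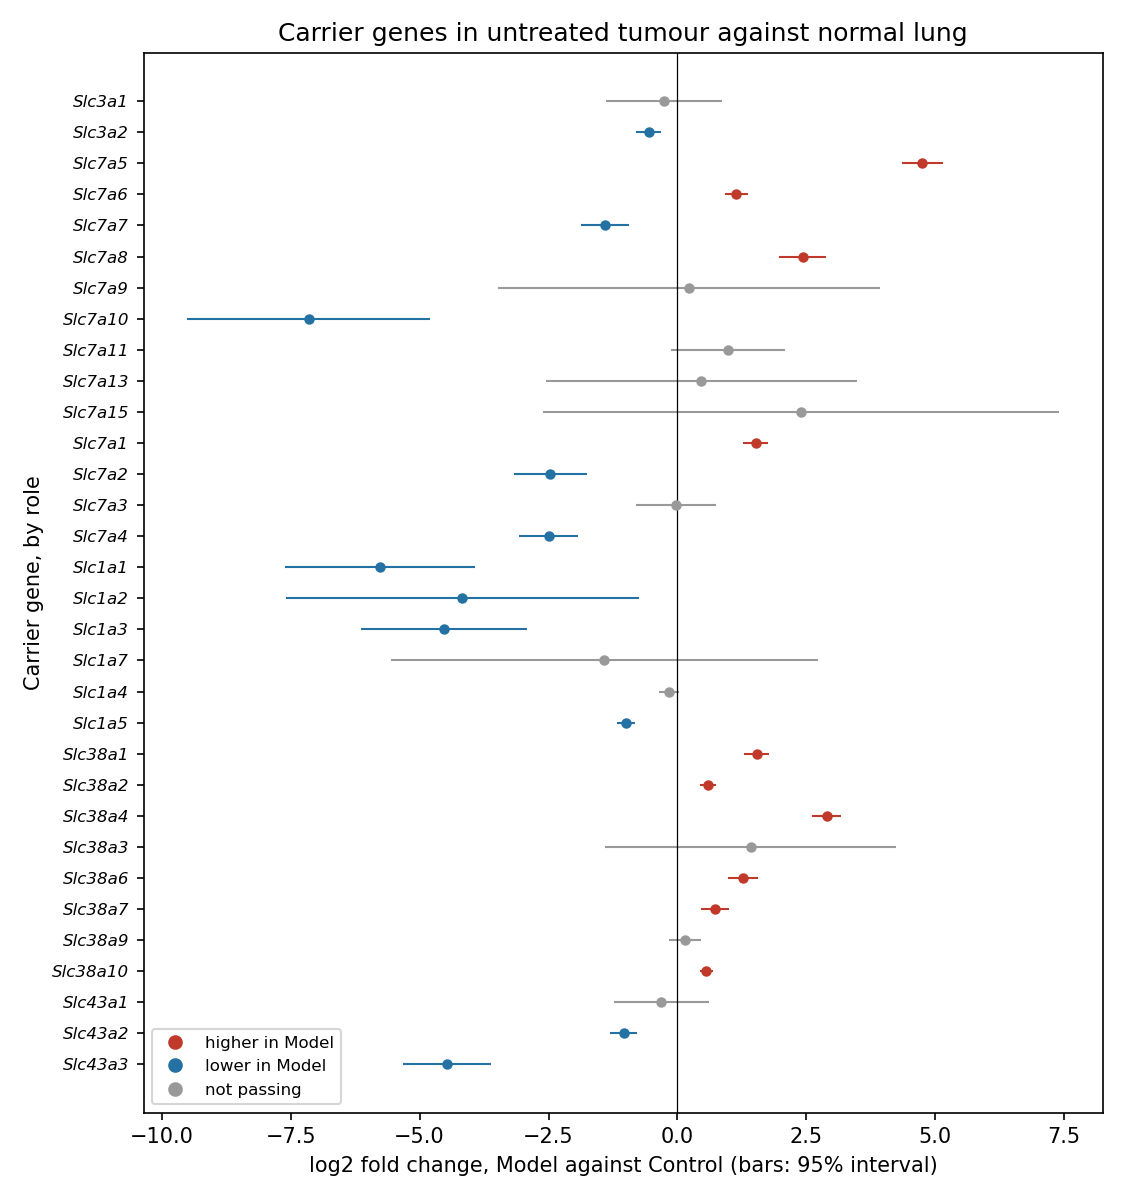
The log2 fold change of Model against Control for the tested members with counts in both groups, ordered by role, with 95% intervals from the fit over all libraries. Red points are higher and blue points lower at an adjusted p of 0.05, and grey points did not pass; Slc7a5 lies farthest to the right at 4.75, and Slc38a5 is left out because it had 0 counts in Model.

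Among the heavy chains, Slc3a2 was lower in Model, and Slc3a1 did not pass. Slc3a2 encodes the CD98 heavy chain, the common partner of most light chains at the cell surface. It stood at 56.1, 50.2 and 45.9 FPKM in the Control libraries and at 39.4, 35.2 and 37.4 in the Model libraries, so the groups did not overlap. Its log2 fold change was -0.56 (SE 0.11, adjusted p = 0.00138 by edgeR). Slc3a1, the heavy chain known from kidney tubule and gut, was low in both groups at 0.333 ± 0.0806 and 0.297 ± 0.122 FPKM (SD, n = 3), and its difference was within the error (log2 fold change -0.26, 95% interval -1.39 to 0.86).

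Of the 10 light chains, 3 were higher in Model (Slc7a5, Slc7a8 and Slc7a6), 2 were lower (Slc7a10 and Slc7a7), 4 did not pass and 1 was not tested. Slc7a5, known as LAT1, exchanges leucine and other large neutral amino acids. Its Control libraries were at 1.79, 1.34 and 1.2 FPKM and its Model libraries at 44.8, 41.3 and 40.7. No Model library came near the Control values, and the log2 fold change was 4.75 (SE 0.18, adjusted p = 4.48e-09 by edgeR), or 26.8-fold. Slc7a8, known as LAT2, carries a similar range of neutral amino acids. It had 0.681, 0.491 and 0.872 FPKM in Control and 4.81, 3.63 and 3.52 in Model, a log2 difference of 2.43 (SE 0.20). Slc7a6, which exchanges arginine and lysine for neutral amino acids with sodium, had 4.21, 4.71 and 3.91 FPKM in Control and 9.36, 11.2 and 10.2 in Model. The groups of Slc7a6 and Slc7a8 were apart as well, with adjusted p = 2.56e-06 and 1.52e-06 by edgeR.

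The light chains that were lower belong to the same partnership. Slc7a10, known as Asc-1, carries small neutral amino acids such as glycine, alanine and serine. It stood at 14.6, 14.9 and 16.2 FPKM in Control, where it was the most abundant light chain, and at 0.132, 0.214 and 0 in Model. The log2 fold change was -7.15 with an SE of 1.07 (adjusted p = 1.52e-04 by edgeR), on 23, 40 and 0 counts in the Model libraries. Slc7a7, which like Slc7a6 exchanges cationic for neutral amino acids, had 3.95, 5.36 and 4.19 FPKM in Control and 1.52, 1.6 and 2.36 in Model. Its log2 fold change of -1.40 (SE 0.21) is thus opposite in sign to the 1.14 of Slc7a6. Both Slc7a10 and Slc7a7 overlap a gene on the other strand, Lrp3 and Oxa1l, and the strand setting of the counting is not given in the sources used here, so reads of each pair cannot be told apart with certainty. Lrp3 stood at 2.56 ± 0.0878 FPKM in Control and 0.269 ± 0.0993 in Model, and Oxa1l at 7.59 ± 0.403 and 10.4 ± 0.545 (SD, n = 3). Such overlaps with exons on the other strand concern 10 of the 38 members.

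Slc7a11, the cystine and glutamate exchanger that feeds glutathione synthesis, did not pass. It was at 0.17, 0.14 and 0.104 FPKM in Control and at 0.291, 0.233 and 0.361 in Model, with a log2 fold change of 0.98 (95% interval -0.12 to 2.09, adjusted p = 0.114 by edgeR). The levels did not overlap, and in the fit on the libraries of Control and Model alone it was higher (adjusted p = 0.0251 by edgeR). The remaining light chains had little expression in either group. Slc7a9 reached at most 0.156 FPKM, Slc7a13 at most 0.246 and Slc7a15 at most 0.0555 in any library of Control or Model.

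Set against the heavy chain, the light chains known to pair with Slc3a2 (Slc7a5, Slc7a6, Slc7a7, Slc7a8, Slc7a10 and Slc7a11) changed in amount and in kind. The ratio of their summed FPKM to that of Slc3a2 was 0.452, 0.538 and 0.578 in Control and 1.54, 1.65 and 1.53 in Model. Slc7a10 made up 58.0% ± 2.98 of this sum in Control and 0.195% ± 0.185 in Model, and Slc7a5 made up 5.52% ± 1.35 and 71.9% ± 1.40 (SD, n = 3). The share of Slc7a6 was 16.3% ± 1.39 and 17.5% ± 1.95, within the spread of the libraries. These ratios and shares were chosen after the levels were seen and are given as description, with no test.

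**Figure D3:**
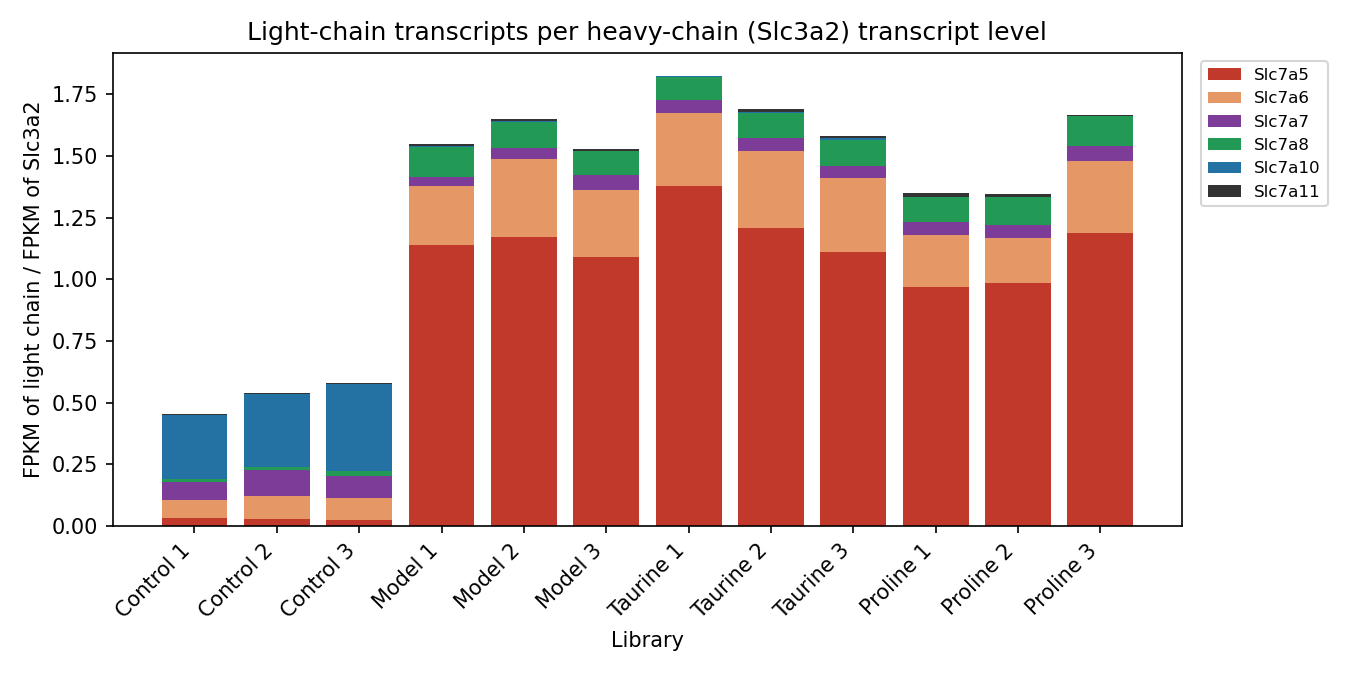
FPKM of each of 6 light chains divided by the FPKM of the heavy chain Slc3a2, stacked, in each library. The bars are 0.452 to 0.578 high in Control, mostly Slc7a10, and 1.34 to 1.83 high in the tumour libraries, mostly Slc7a5.

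Of the 5 cationic carriers, 1 was higher and 2 were lower in Model, 1 did not pass and 1 was not tested. Slc7a1, known as CAT1, is the widespread arginine and lysine carrier. Its level was 1.19, 1.38 and 1.67 FPKM in Control and 4.6, 4.31 and 4.26 in Model, a log2 difference of 1.52 (SE 0.11, adjusted p = 5.30e-07 by edgeR). Slc7a2, an arginine carrier known from liver and activated macrophages, moved the other way. It had 3.56, 3.32 and 3.19 FPKM in Control and 0.629, 0.838 and 0.512 in Model (log2 fold change -2.47, SE 0.32). Slc7a4 is a relative of these carriers. It was at 3.5, 3.97 and 3.54 FPKM in Control and at 0.845, 0.522 and 0.734 in Model (log2 fold change -2.50, SE 0.26). The adjusted p of Slc7a2 was 4.97e-05 and that of Slc7a4 was 9.40e-06 by edgeR, and neither gene's groups overlapped. Slc7a4 shares exonic sequence with P2rx6 on the other strand, whose level was 3.45 ± 0.582 FPKM in Control and 0.352 ± 0.237 in Model. Slc7a3, a cationic carrier known from brain, was low and overlapped (log2 fold change -0.03, 95% interval -0.81 to 0.75).

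The glutamate carriers take up glutamate and aspartate with sodium. Of these 5, 3 were lower in Model and none was higher, beside 29.3% lower and 28.8% higher of all genes tested. Control was the only group with all libraries over the filter's minimum for 1 of the 3, Slc1a2. Slc1a1 was at 2.1, 2.08 and 2.17 FPKM in Control and at 0.014, 0.0246 and 0.0832 in Model (log2 fold change -5.77, SE 0.83, adjusted p = 1.17e-04 by edgeR). Slc1a3, known from astrocytes, was at 2.02, 2.07 and 2.63 FPKM in Control and at 0.108, 0.187 and 0.0196 in Model (log2 fold change -4.52, SE 0.73, adjusted p = 2.60e-04 by edgeR). For these genes every Control library was more than 10 times the highest Model library. Slc1a2, the main glutamate carrier of the forebrain, was low throughout, at 0.141, 0.0827 and 0.146 FPKM in Control and 0, 0.0042 and 0.0165 in Model. Its call was close to the threshold (log2 fold change -4.17, SE 1.55, adjusted p = 0.0381 by edgeR) and was lost without any 1 of the Control libraries (adjusted p = 0.0596 to 0.0826) or without Model 1 or Model 2 (0.0850 and 0.108). Slc1a7, known from retina, was near 0 and did not pass, and Slc1a6 was not tested. As a group these carriers summed to 4.56 ± 0.434 FPKM in Control and 0.172 ± 0.0625 in Model (SD, n = 3).

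The neutral exchangers Slc1a5 and Slc1a4, known as ASCT2 and ASCT1, are relatives of the glutamate carriers that swap serine, alanine and other neutral amino acids across the membrane. Slc1a5, the glutamine exchanger, fell from 36.8, 38.5 and 34.2 FPKM in Control to 19.6, 20.1 and 19.8 in Model (log2 fold change -0.998, SE 0.08, adjusted p = 9.17e-07 by edgeR). Slc1a4 was at 7.38, 8.26 and 7.62 FPKM in Control and at 7.86, 7.93 and 6.84 in Model. These groups overlapped, and its log2 fold change of -0.16 (95% interval -0.35 to 0.03) did not pass by edgeR with TMM scaling (adjusted p = 0.139), while it passed with median-ratio scaling (-0.24, adjusted p = 0.0328) and by DESeq2 (-0.24, adjusted p = 0.0229).

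All 3 system A carriers were higher in Model. They bring in alanine, glutamine and other small neutral amino acids with sodium. Slc38a4 was at 2.49, 1.96 and 2.35 FPKM in Control and at 18, 21 and 16 in Model (log2 fold change 2.90, SE 0.13, adjusted p = 1.22e-08 by edgeR). Slc38a1 was at 1.31, 1.82 and 1.45 FPKM in Control and at 4.65, 4.58 and 5.13 in Model (log2 fold change 1.53, SE 0.11, adjusted p = 4.87e-07 by edgeR). Slc38a2, which is known to be induced when amino acids are short, was already abundant in Control at 14.1, 13.8 and 14.3 FPKM and reached 22.5, 25 and 21.6 in Model (log2 fold change 0.59, SE 0.07, adjusted p = 1.83e-05 by edgeR). The groups of all 3 genes were apart, and their summed level was 17.9 ± 0.29 FPKM in Control and 46.2 ± 4.01 in Model (SD, n = 3). In RefSeq's gene order on chromosome 15 (GRCm38.p6), Slc38a1, Slc38a2 and Slc38a4 follow one another with no other coding gene between them.

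Of the 2 system N carriers, 1 was lower in Model and 1 did not pass. They move glutamine, asparagine and histidine in either direction. Slc38a5 was at 10.8, 11.9 and 14.2 FPKM in Control, on 1896, 2121 and 2535 counts, and had 0 counts in each Model library. Set against a floor of 3 counts over the Model libraries together, it was at least 2463-fold lower, a bound that covers counting error only (adjusted p = 3.50e-04 by edgeR). Slc38a3, known from liver and brain, was low, with 0.103, 0.202 and 0.074 FPKM in Control and 0.551, 0.475 and 0.103 in Model, and it did not pass (log2 fold change 1.42, 95% interval -1.40 to 4.25).

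Of the 6 other Slc38 genes, 3 were higher in Model, 1 did not pass and 2 were not tested. Slc38a6 was at 1.27, 1.66 and 1.27 FPKM in Control and at 3.22, 4.32 and 3.45 in Model (log2 fold change 1.27, SE 0.13, adjusted p = 7.60e-06 by edgeR). Slc38a7, which releases glutamine and asparagine from lysosomes, was at 3.1, 3.36 and 3.23 FPKM in Control and at 5.79, 6.74 and 4.86 in Model (log2 fold change 0.72, SE 0.12, adjusted p = 3.76e-04 by edgeR). Slc38a10 was at 12.6, 14 and 13.5 FPKM in Control and at 22, 21.1 and 20.9 in Model (log2 fold change 0.56, SE 0.06, adjusted p = 7.94e-06 by edgeR). In each of these the lowest Model library lay above the highest Control library. Slc38a9, the lysosomal arginine sensor of mTORC1, was at 1.05 ± 0.0466 FPKM in Control and 1.27 ± 0.124 in Model (SD, n = 3), and it did not pass (log2 fold change 0.15, 95% interval -0.16 to 0.45).

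In the Slc43 family, 2 of 3 members were lower in Model and none was higher. Slc43a3, known as a carrier of purine bases and not of amino acids, was the most abundant member in Control at 74.2, 65.8 and 61.8 FPKM. In Model it was at 4.36, 3.4 and 2.2 FPKM (log2 fold change -4.47, SE 0.39, adjusted p = 2.10e-06 by edgeR), far outside the Control range. Slc43a2, a carrier that lets leucine and other large neutral amino acids pass down their gradient, was at 8.71, 8.46 and 9.78 FPKM in Control and at 5.24, 5.04 and 3.98 in Model (log2 fold change -1.04, SE 0.12, adjusted p = 1.95e-05 by edgeR). Slc43a1, with the same substrates and known from liver and pancreas, was low and overlapped at 0.587 ± 0.217 and 0.517 ± 0.193 FPKM (SD, n = 3). In RefSeq's order, Slc43a1 and Slc43a3 are neighbours on chromosome 2 with 1 coding gene, Rtn4rl2, between them. As a family the Slc43 genes held 29.4% ± 1.44 of the members' summed FPKM in Control and 3.93% ± 0.75 in Model (SD, n = 3).

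Promoter sequences from RefSeq (GRCm38.p6) were found for 28 of the 38 members, as 39 promoters of 250 bases before to 50 after a gene's start. No promoter was matched for Slc1a5, Slc7a2, Slc7a3, Slc7a4, Slc7a5, Slc7a12, Slc7a13, Slc38a1, Slc38a3 and Slc43a3. On both strands 3 motifs were searched. TGATGNAA is the composite element known to bind Atf4 with a C/EBP partner, CACGTG is the E-box of Myc and its relatives, which reads the same on both strands, and TGACNNNGC is the antioxidant element of Nrf2. TGATGNAA was in 4 of the members' promoters (10.3%) and in 3.97% of all 32851 promoters. CACGTG was in 6 (15.4%) against 7.15% of all, and TGACNNNGC was in 5 (12.8%) against 12.4%. In turn these were promoters of 3, 6 and 4 genes. Overlapping promoters of Slc7a7 shared a TGATGNAA site and those of Slc7a6 a TGACNNNGC site, so a shared site counted more than once in these shares. The genes with TGATGNAA were Slc1a4, Slc7a7 and Slc7a11, which did not pass, fell and did not pass in Model against Control.

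The 250 bases before the start are given for 3 members, chosen after their values were seen. Slc7a11 held the composite element more than once, at -66 on the gene's strand and at -47 on the other strand, counted back from -1 at the last base before the start. Slc38a5 is shown because it was at or near 0 in the tumours, with an E-box at -30, and Slc38a2 because it lies between the other system A genes and rose with them, with the antioxidant motif at -27. The sequences run 5′ to 3′ on the gene's strand, with the matches in capitals. They come from chr3:50443614-50443863 (minus strand), chrX:8271131-8271380 (plus strand) and chr15:96699729-96699978 (minus strand). A match of letters is a description of the sequence and no evidence of binding.
Slc7a11: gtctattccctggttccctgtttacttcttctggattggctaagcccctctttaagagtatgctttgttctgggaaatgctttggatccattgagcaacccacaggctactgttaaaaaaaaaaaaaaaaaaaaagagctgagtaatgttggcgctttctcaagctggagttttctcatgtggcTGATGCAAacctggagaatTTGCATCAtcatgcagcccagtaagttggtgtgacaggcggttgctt
Slc38a5: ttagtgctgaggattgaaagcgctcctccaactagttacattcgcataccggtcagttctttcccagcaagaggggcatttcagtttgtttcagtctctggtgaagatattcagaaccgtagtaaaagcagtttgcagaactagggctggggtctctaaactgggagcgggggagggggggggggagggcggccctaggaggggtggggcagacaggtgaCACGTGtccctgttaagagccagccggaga
Slc38a2: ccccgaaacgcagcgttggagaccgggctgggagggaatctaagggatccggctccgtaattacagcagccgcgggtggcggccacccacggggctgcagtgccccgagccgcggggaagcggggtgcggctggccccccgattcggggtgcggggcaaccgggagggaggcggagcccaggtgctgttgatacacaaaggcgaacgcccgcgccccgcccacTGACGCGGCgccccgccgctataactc

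The comparisons of Taurine with Model and of Proline with Model ask whether an added amino acid changed the tumour, and Taurine against Proline compares both treatments directly. They share libraries, since Model serves in the first pair and Proline in the last pair. By edgeR no member passed in any of the 3. Of all genes, 0% passed in Taurine against Model, 0% in Proline against Model and 0.0431% in Taurine against Proline. At an unadjusted p under 0.05 by edgeR, 1 member (2.63%) stood out in Taurine against Model, where 6.79% of all genes did, 7 (18.4%) in Proline against Model, where 13.4% of all genes did, and 7 (18.4%) in Taurine against Proline, where 14.4% of all genes did. Over the 33 members tested the shares were 3.03%, 21.2% and 21.2%, below the background in Taurine against Model and above it in the other comparisons, and nothing is read from these unadjusted counts. The median log2 fold change of the tested members was 0.02, -0.14 and 0.08 in turn, against 0.00 for all genes in each comparison.

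Other tools gave few calls. DESeq2 called 0 members in Taurine against Model (0.379% of all genes), 2 in Proline against Model (3.32%) and 2 in Taurine against Proline (4.64%), and in both cases these were Slc1a5 and Slc1a4. Limma's voom with library weights called 0 members in each comparison, where it called 0%, 0.0949% and 0.203% of all genes. Limma on log2(FPKM + 1) also called 0 members, with 0.00862%, 0.0129% and 0% of all genes. The unadjusted counts rested on single libraries. That of Taurine against Model was 4 without Model 3 and 0 without Model 1, Taurine 1 or Taurine 2, and 2 without any 1 of the Proline libraries. In Proline against Model it was 3 without Proline 1, 12 without Proline 3, and 4 without Model 1 or without Model 2. That of Taurine against Proline was 4 without Proline 1 or without Taurine 3 and 11 without Proline 3.

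The main features that set normal lung apart from untreated tumour were also present in the treated tumours. Slc7a5 was at 49.8, 40.9 and 34.1 FPKM in Taurine and at 39.4, 45.7 and 42.1 in Proline. Against Model its log2 difference was 0.02 in Taurine (95% interval -0.32 to 0.35) and 0.03 in Proline (-0.31 to 0.37), so that the intervals leave out a change of as much as 0.5 in either direction. The same 6 members were highest in Model, Taurine and Proline, with 74.7% of the summed FPKM in Taurine and 76.6% in Proline. Slc7a10 stayed low, at 0.0899, 0.146 and 0.267 FPKM in Taurine and at 0, 0 and 0.0405 in Proline. Slc43a3 was at 3.81 ± 1.90 FPKM in Taurine and 3.91 ± 1.09 in Proline (SD, n = 3), beside 3.32 ± 1.08 in Model. Not every level was alike. Of the members that were higher in Model, Slc38a4 and Slc38a6 were somewhat lower in Proline. Their log2 differences from Model were -0.27 (95% interval -0.53 to -0.005) and -0.34 (-0.62 to -0.06). Slc7a1 differed the other way, at 0.23 (-0.01 to 0.47). None of them passed (adjusted p = 0.366, 0.297 and 0.388 in turn by edgeR).

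The neutral exchangers were the members with the smallest p in Proline against Model. Slc1a5 was at 26, 27.3 and 24 FPKM in the Proline libraries, all above the Model libraries at 19.6 to 20.1, with a log2 difference of 0.41 (95% interval 0.23 to 0.58) that did not pass by edgeR (adjusted p = 0.123). It passed by DESeq2 (adjusted p = 2.34e-04) and by edgeR without Proline 3 (0.0282). Slc1a4 was at 5.77, 6.33 and 5.33 FPKM in Proline, all below the Model libraries at 6.84 to 7.93. Its log2 difference of -0.35 (95% interval -0.54 to -0.16) did not pass by edgeR (adjusted p = 0.191) and passed by DESeq2 (0.0202). In Taurine, Slc1a5 was at 23.4, 20.5 and 19.5 FPKM and Slc1a4 at 7.83, 7.68 and 8.51, and both overlapped with Model. Taurine against Proline gave a log2 difference of 0.47 for Slc1a4 (95% interval 0.28 to 0.66, adjusted p = 0.0947 by edgeR and 2.73e-04 by DESeq2) and of -0.28 for Slc1a5 (95% interval -0.45 to -0.11, adjusted p = 0.160 by edgeR and 0.0223 by DESeq2).

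The ratio of Slc1a5 to Slc1a4, chosen after their values were seen, brings both differences together within a library. It was 4.99, 4.66 and 4.5 in Control, 2.49, 2.54 and 2.89 in Model, 2.99, 2.67 and 2.29 in Taurine, and 4.51, 4.32 and 4.49 in Proline. The Proline libraries lay above every Model and Taurine library and within or just below the Control range. The levels behind the ratio were not those of Control. Slc1a5 was at 25.8 ± 1.7 FPKM in Proline and 36.5 ± 2.16 in Control, and Slc1a4 at 5.81 ± 0.502 and 7.75 ± 0.457 (SD, n = 3). Proline was not tested against Control. The two-sided exact permutation test of the log2 ratio gave p = 0.1 for Proline against Model, for Taurine against Proline and for Model against Control (0.133 adjusted over the 4 comparisons), which is the smallest p that 3 against 3 libraries allow, and p = 1 for Taurine against Model. With this choice and this number of libraries the test cannot pass 0.05.

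**Figure D4:**
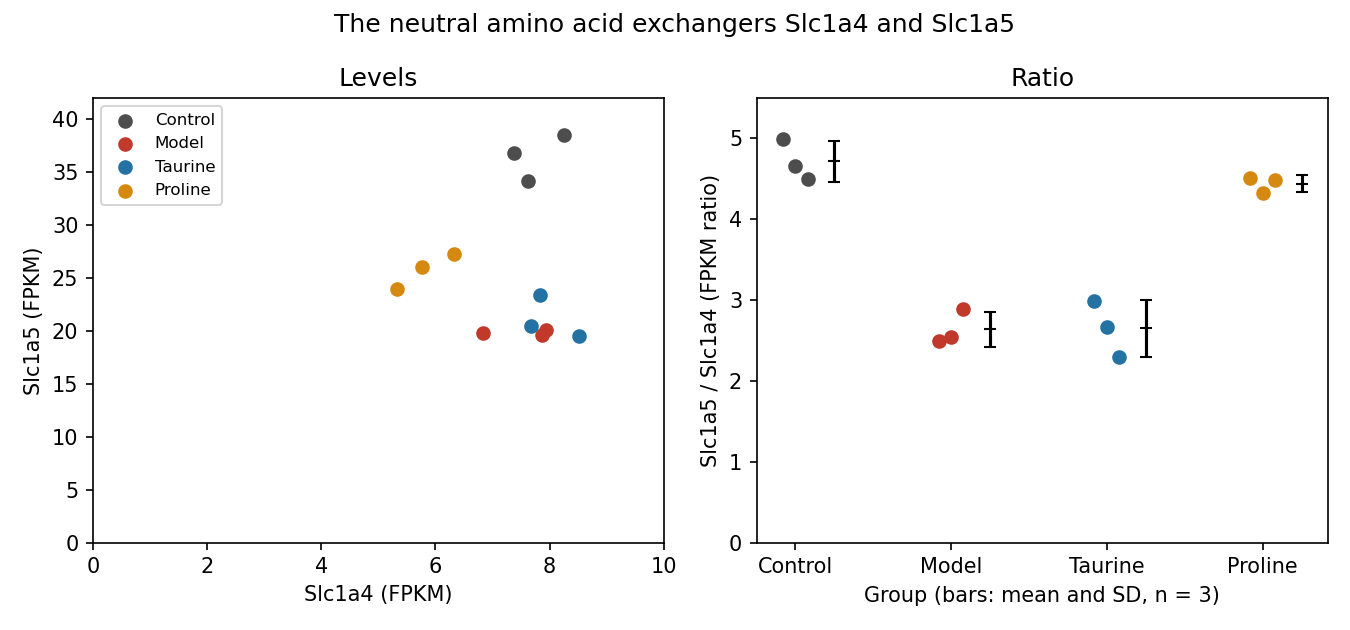
Left, Slc1a5 against Slc1a4 in FPKM, 1 point a library; right, the ratio of both by group, with mean and SD (n = 3). The Model and Taurine libraries have ratios of 2.29 to 2.99, while the ratios of the Proline libraries, at 4.32 to 4.51, lie beside those of the Control libraries at 4.5 to 4.99. The levels of both genes are lower in every Proline library than in every Control library.

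Further members with small p were Slc43a2, Slc7a3 and Slc7a10, none of which passed. Slc43a2 was at 3.77, 3.32 and 4.26 FPKM in Taurine and at 3.25, 4 and 3.33 in Proline, beside 3.98 to 5.24 in Model. Its log2 difference from Model was -0.29 in Taurine (adjusted p = 0.707 by edgeR) and -0.40 in Proline (adjusted p = 0.224 by edgeR), and the libraries of each treatment overlapped with those of Model. Slc7a3 was at 0.662, 0.871 and 0.643 FPKM in Taurine and at 0.343, 0.694 and 0.326 in Model (log2 difference 0.72, adjusted p = 0.740 by edgeR). For Slc7a10 the values are at the limit of detection, with 17, 27 and 50 counts in Taurine and 0, 0 and 9 in Proline (log2 difference of Taurine against Proline 3.36, adjusted p = 0.235 by edgeR). Slc1a7 had 0 counts in each Taurine library and 10, 8 and 0 in Model, 18 in all, which makes it at least 6.08-fold lower by counting error alone (adjusted p = 0.729 by edgeR). All of these counts came from Model 1 and Model 2, the libraries with high hepatocyte markers, and without them both groups had 0 counts.

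Slc7a11 varied between the Proline libraries. It was at 0.721, 0.599 and 0.217 FPKM there, and at 0.291, 0.233 and 0.361 in Model, so Proline 1 and Proline 2 lay above Model and Proline 3 below it. The log2 difference was 0.82 (95% interval -0.27 to 1.91, adjusted p = 0.499 by edgeR). The 5 neutrophil markers, none of which was at 0 throughout a group, varied in the same order within Proline, with sums of 175, 153 and 36 FPKM. In Model they summed to 91.8, 37.9 and 53.8 FPKM, while Slc7a11 was highest in Model 3. Their order in Control was the reverse of that of Slc7a11 (70.9, 87.8 and 105 beside 0.17, 0.14 and 0.104 FPKM). In Taurine they were at 49.1, 46.6 and 34.3 beside 0.128, 0.404 and 0.2 FPKM. The 6 T cell markers also fell across the Proline libraries (8.05, 4.19 and 0.857 FPKM), with Cd5 at 0 in Taurine. The part of these cells in the level of Slc7a11 was not tested.

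Several low members followed libraries more than groups. The 9 kidney proximal tubule markers summed to 43.1 FPKM in Model 3, 38.3 in Taurine 1 and 42.2 in Taurine 2, and to 1.42 to 7.81 in the other tumour libraries. In the same 3 libraries Slc7a13, a light chain known from kidney, was at 0.246, 0.307 and 0.306 FPKM, against at most 0.0822 in any other tumour library. Slc7a9, the cystine light chain of kidney that pairs with Slc3a1, was at 0.156, 0.14 and 0.0987 FPKM there and at most at 0.0242 in the other tumours. Slc3a1 itself was at 0.438, 0.465 and 0.591 FPKM in them and at 0.158 to 0.306 elsewhere among the tumours, and all 19 counts of Slc7a12 came from these 3 libraries. In Control, Slc3a1 was at 0.37, 0.24 and 0.388 FPKM although the kidney markers summed to only 9.13, 7.04 and 3.87 FPKM. Slc3a1 also overlaps Prepl on the other strand, which stood at 4.18 ± 0.129 FPKM in Control and 4.24 ± 0.319 in Model (SD, n = 3). Reads of this pair cannot be told apart with certainty. No kidney marker was at 0 throughout a group, and the part of kidney RNA in these levels was not tested.

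Slc38a3 was likewise high in single libraries. The 9 hepatocyte markers summed to 70.4 and 86.1 FPKM in Model 1 and Model 2 and to 1.76 to 4.28 in the other tumour libraries, with Alb, Cps1, Fgb and Ttr at 0 in every Proline library. They varied in Control too, with sums of 16.8, 16.4 and 1.8 FPKM beside Slc38a3 at 0.103, 0.202 and 0.074 FPKM. Slc38a3 was at 0.551 and 0.475 FPKM in Model 1 and Model 2, against 0.103 in Model 3. It was highest, at 0.834 FPKM, in Taurine 3, where the 6 skeletal muscle markers summed to 1043 FPKM (1.79 to 372 in the other tumours, and with Myh4 at 0 in Control), and at 0.0342 to 0.119 in the other Taurine libraries. The muscle markers did not go with a higher Slc38a3 in Proline 2 and Proline 3. Their sums there were 372 and 240 FPKM, and Slc38a3 was at 0.0827 and 0.105 FPKM. Slc38a5 had 17 counts in Proline 1 and 0 in every other tumour library. In Proline 1 the alveolar type 2 markers summed to 360 FPKM, against 4.8 to 25.7 in the other tumours. The part of liver, muscle or lung tissue in these values was not tested.

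**Figure D5:**
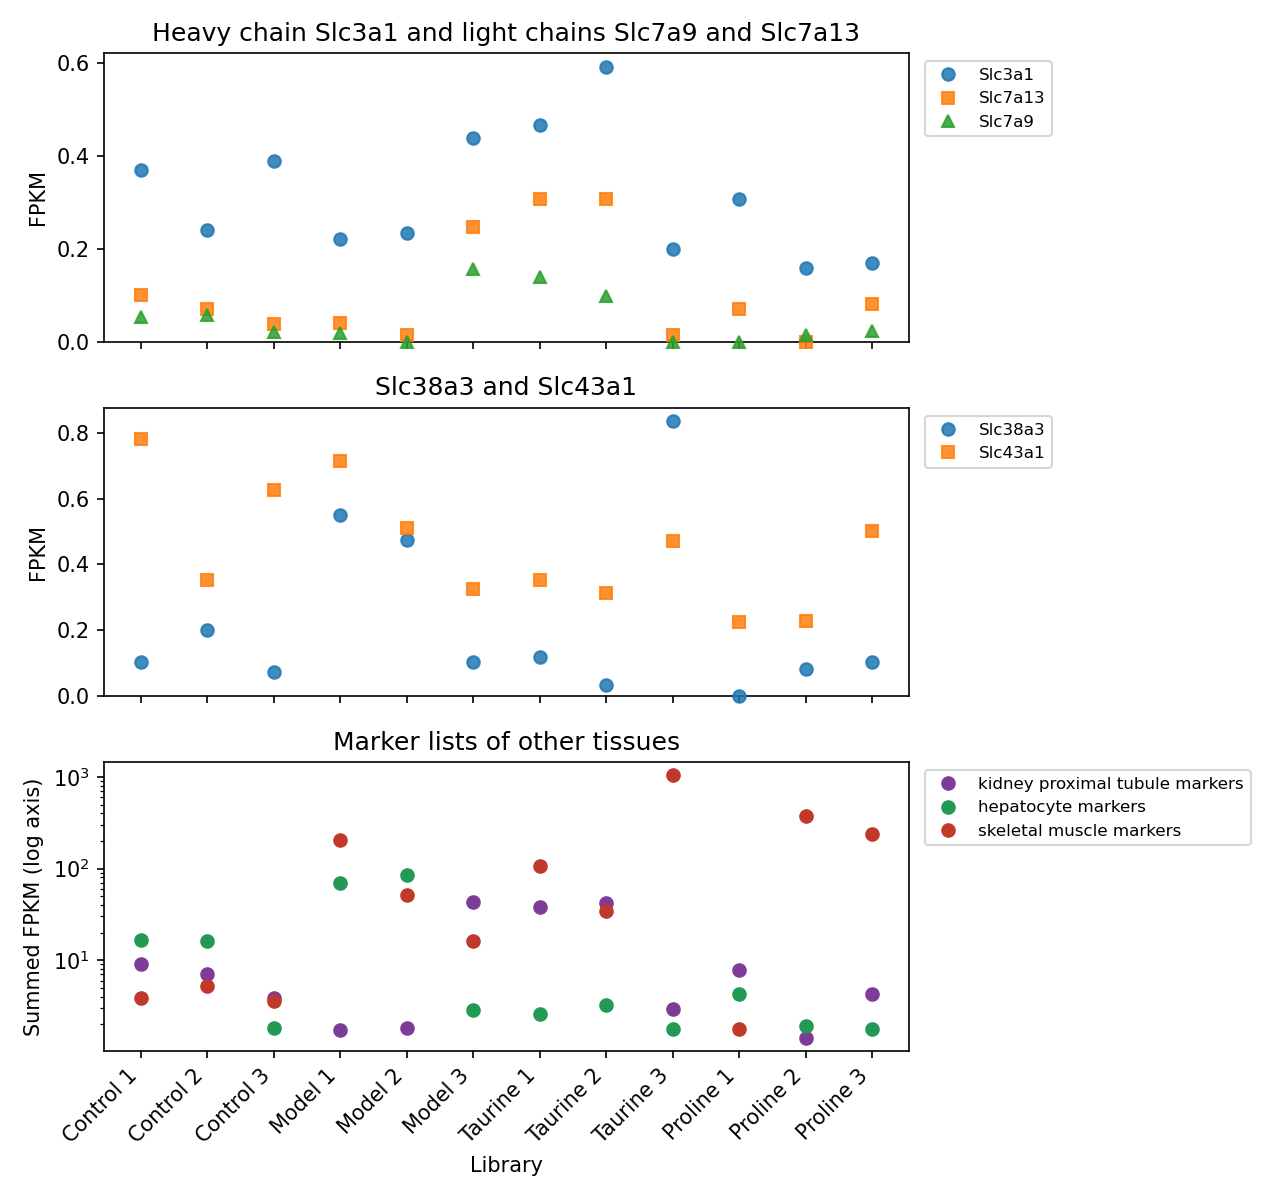
FPKM of 5 low members by library in the upper panels, and summed FPKM of 3 marker lists on a log axis in the lower panel. Slc7a13, Slc7a9 and Slc3a1 are highest among the tumours in Model 3, Taurine 1 and Taurine 2, where the kidney tubule markers reach 38.3 to 43.1 FPKM.

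Amino acid carriers outside these families gave a mixed picture in Model against Control. Shares of all genes tested, as given above, were 28.8% higher and 29.3% lower. Of 16 other plasma membrane carriers, 4 were higher, 4 lower, 7 did not pass and 1 was not tested, with a median log2 fold change of -0.56. Slc6a6, the taurine carrier, rose from 10.5, 11.3 and 13.2 FPKM in Control to 24.2, 27.2 and 22.4 in Model. Slc6a14, a broad carrier of neutral and cationic amino acids, was at 9.19, 10.5 and 10.9 FPKM in Control and listed at 0 in each Model library. Of 14 mitochondrial carriers, 7 were higher and 4 lower. The aspartate and glutamate exchanger Slc25a13 was at 0.806, 0.821 and 1.09 FPKM in Control and at 9.5, 10.1 and 10.2 in Model (log2 fold change 3.33), and Sfxn1, the mitochondrial serine carrier, at 1.05, 1.3 and 1.21 against 5.54, 5.73 and 5.62 (2.13). Of 7 lysosomal carriers, 1 was higher and 2 were lower.

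Of the 23 genes through which amino acids act on mTORC1, 10 were higher, 8 lower and 5 did not pass, beside the same 28.8% and 29.3% of all genes. Rptor, the scaffold subunit of mTORC1, had a log2 fold change of 1.10 and Nprl3, a subunit of the complex that restrains it, one of 1.73, while the GTPase Rragd had -3.40 and Sesn3, a relative of the leucine sensor Sesn2, -2.44. Among 9 transcription factors known to act on these carriers, 3 were higher and 4 lower. Myc was at 2.45, 2.61 and 2.59 FPKM in Control and at 112, 109 and 144 in Model (log2 fold change 5.46, adjusted p = 1.88e-09 by edgeR). Hif1a was higher (1.85) and Epas1, abundant in lung endothelium, was lower (-6.69). Atf4 was slightly lower in transcript level at 92.6, 94.8 and 88.6 against 84.7, 83.9 and 89.1 FPKM (log2 fold change -0.22, adjusted p = 0.00832 by edgeR), with groups that overlapped. No gene of these 5 lists passed by edgeR in the comparisons between tumours. At an unadjusted p under 0.05 by edgeR in Proline against Model, where 13.4% of all genes stood out, the counts were 5 of 16 other plasma membrane carriers, 2 of 7 lysosomal carriers, 3 of 14 mitochondrial carriers, 3 of 23 mTORC1 genes and 2 of 9 transcription factors. In the same order they were 0, 0, 3, 3 and 0 in Taurine against Model (6.79% of all genes) and 4, 2, 2, 4 and 3 in Taurine against Proline (14.4% of all genes).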

How the data were processed

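The deposited table gives each gene a count and an FPKM in each library. The counts are raw per the file headers, and the authors made FPKM by scaling to gene length and library total. The submitters' processing notes name the mm10 build. No aligner, counting program or strand setting is named in the sources used here. The table's positions matched a GRCm38 annotation for 1 of 38 members, so none is printed. RNA came from a Qiagen kit and libraries from a SMARTer kit, per the labels. The labels do not say whether libraries of a group are different mice, and the spread behind each p-value may be technical. Library numbers follow accession order and pair nothing.

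Counts were tested with the quasi-likelihood test of edgeR 4.0.16 (with limma 3.58.1 under R 4.3.3, TMM scaling, filterByExpr with a minimum count of 10, all 12 libraries in 1 fit, a contrast per comparison, two-sided, Benjamini-Hochberg adjustment over 23191 genes). The standard error is the log2 fold change divided by the square root of F. The fit was also run on simulated counts in which few genes differed, in equal numbers up and down. That run did not check the scaling where as many genes differ as in Model against Control. Alternatives were median-ratio scaling, no filter, DESeq2 1.42.0, voom, limma on log2(FPKM + 1) and log2(FPKM + 0.1), only the groups compared, and leaving out each library. After the data were seen, Model 1 and 2 (hepatocyte markers), and Model 3, Taurine 1 and Taurine 2 (kidney markers), were also left out. The second of these fits kept only 1 Taurine library, so its calls between tumours are not given.

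The members, gene lists and rules were chosen with earlier results of these data known. Values in every library are given for well expressed members past the threshold in Model against Control and for the 3 members with the smallest p in each comparison of tumours. Slc6a6, Slc6a14, the other list genes and the promoters named were picked after their values were seen. Counting bounds use a floor of 3 counts over a group and cover counting error only. Protein sequences were not used here.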

Additional observations from a re-analysis of the deposited data

How the results depend on the processing

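In Model against Control the number of members higher was 10 in all alternatives except the fit of those groups alone (11, with Slc7a11), and the number lower was 11 to 13. Besides Slc1a2, Slc1a4 and Slc7a11 as reported, Slc1a2 lost its call without a filter (adjusted p = 0.06), and Slc38a11, not tested in the reported fit, was lower without a filter (0.0380) and without Control 3 or any 1 library of Taurine or Proline (0.0270 to 0.0314). Between tumours, DESeq2 called 2 members in Proline against Model and 2 in Taurine against Proline. Leaving out single libraries gave 0 to 1 members in Proline against Model (Slc1a5, without Proline 3) and 0 in the other comparisons between tumours. Without Model 1 and 2 the fold changes against Model rest on 1 untreated tumour, whose spread is assumed to be that of the other groups: the adjusted p of Slc1a2 in Model against Control was then 0.292, the unadjusted count of Proline against Model was then 1 in place of 7, and the log2 difference of Slc7a10 was 4.58 in place of -2.77, with 0 counts in the remaining Model library. The causes of these changes were not tested. No paired analysis was possible because the labels give no replicate numbers. With 3 libraries a group, differences under the spread shown by the intervals were not detectable, and members under about 0.1 FPKM rest on few counts.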
